A study of Saccharomyces cerevisiae with 21 samples.

Results

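PAU2 (YEL049W), PAU5 (YFL020C) and PAU17 (YLL025W) are 3 of the 24 seripauperin genes annotated in budding yeast. They were taken as the rows with these locus tags in each table of counts, 3 of 7126 features. The 3 genes had been selected on their read counts, so the fact that they carry counts is how they were chosen and not a result. Earlier results of these data, including values of the 3 genes in ste12 and dig1, were known when they were picked, so their changes in those strains are not independent evidence.

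Seripauperins are small, closely related proteins of the cell wall, akin to the Tir and Dan mannoproteins. Many of their genes lie near chromosome ends and are known to be induced when oxygen is scarce, during wine fermentation and in the cold. In aerobic cells haem and sterol sensing keep such anaerobic genes low: the repressors Rox1 and Mot3 act with the corepressor Tup1-Cyc8, and the zinc cluster factor Upc2 activates them when sterol runs low.

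The libraries came from biofilms of Saccharomyces cerevisiae of the Sigma1278B background, a laboratory background that can grow as filaments and mats. All strains were grown for 16 h at 30 °C in rich glucose medium, placed as 10 µl spots on agar with rich galactose medium for 24 h, and polyadenylated RNA was sequenced. There were 7 groups of 3 libraries: the wild type, the dig1 mutant, labelled hyperfilamentous, and the ste12, spt8, rim101-531, ras2 and rtg3 mutants, labelled hypofilamentous. Ste12 is the transcription factor of the filamentation and mating pathways, and Dig1 restrains it. Spt8 belongs to SAGA, a coactivator complex, and Rim101 is the zinc finger repressor of the alkaline pH pathway. Ras2 signals to protein kinase A, and Rtg3 is a transcription factor of the retrograde pathway, which reports on the state of mitochondria. The labels do not say how the mutations were made or whether replicate libraries stem from independent cultures, so p-values reflect only how these samples varied, and that variation may be technical. Counts on features ran from 2388813 to 3987529 per library. SPT8, RAS2 and RTG3 had no count in their own mutants and DIG1 had 1 over 3 libraries, while STE12 kept 187 counts in ste12 against 534 in the wild type and RIM101 kept 1354 in rim101-531 against 1647, so counts check the last 2 labels in part or not at all.

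The members lie farther from chromosome ends than most of their family. In the R64 reference PAU2 lies on chromosome V at 63728 to 64090 (plus strand), PAU5 on chromosome VI at 99231 to 99599 (minus strand) and PAU17 on chromosome XII at 94747 to 95121 (plus strand). Each is annotated as 1 coding segment with no overlapping gene, of 363, 369 and 375 bases. They lie 63.7, 99.2 and 94.7 kb from the nearer chromosome end, whereas 19 of the 24 family genes lie within 40 kb of an end. PAU23, at 222.7 kb, and PAU7, at 53.2 kb, also lie farther than 40 kb from an end. The coding sequences of PAU2 and PAU5 are 86.4% identical, those of PAU5 and PAU17 87.2% and those of PAU2 and PAU17 81.9%. The closest relative in the family is PAU12 for PAU2 (96.4%), PAU17 for PAU5 (87.2%) and PAU23 for PAU17 (93.9%).

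Reads can be assigned to a gene only where its sequence is its own. Of the windows of 50 bases in PAU17, 91.4% occur once in the R64 genome, against 75.3% in PAU5 and 65.0% in PAU2. The labels used here do not give the read length, and the order depends on it: with windows of 100 bases the shares are 100% in PAU17, 94.7% in PAU2 and 89.3% in PAU5. The 60 aligned bases in which the members differ most from each other are shown, near the 3' end of the coding sequence, with PAU23 added because it is the gene most like PAU17. Capitals mark the 15 positions at which PAU2, PAU5 and PAU17 are not all alike.
PAU2 (chrV:64004-64063, plus strand): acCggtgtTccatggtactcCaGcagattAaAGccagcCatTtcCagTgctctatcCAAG
PAU5 (chrVI:99258-99317, minus strand): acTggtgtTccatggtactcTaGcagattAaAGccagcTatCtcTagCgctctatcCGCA
PAU17 (chrXII:95032-95091, plus strand): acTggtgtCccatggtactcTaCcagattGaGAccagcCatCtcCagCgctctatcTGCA
PAU23 (chrXII:222715-222774, minus strand): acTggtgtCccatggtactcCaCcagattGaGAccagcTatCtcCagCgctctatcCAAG
In this stretch PAU5 and PAU23 each differ from PAU2 at 9 positions and PAU17 differs from it at 13.

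The counts of the family lay mostly on the members. Over all 21 libraries PAU5 had 10564 counts, PAU17 1636 and PAU2 1426, together 85.6% of the 15910 counts on the 24 genes. PAU23 had 1699 counts, more than PAU2 and PAU17, so the members are not all the seripauperins with reads of their own. Of the others, PAU13 had 251 counts, PAU12 had 111, 9 genes had from 1 to 100, and 9 had none. Of those 9 genes without counts 7 had no window of 50 bases that occurs once in the genome. Reads that align to more than 1 place are not in the tables, so the output of the family as a whole was not measured. The windows are those of R64, and the copies of the Sigma1278B background were not compared with them. Counts on any seripauperin, the members included, may therefore miss or mix reads of close copies. All 3 members passed the filter on low counts, with at least 10 counts in every library, and 2 of the other 21 seripauperins did, PAU23 and PAU13.

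**Figure D1:**
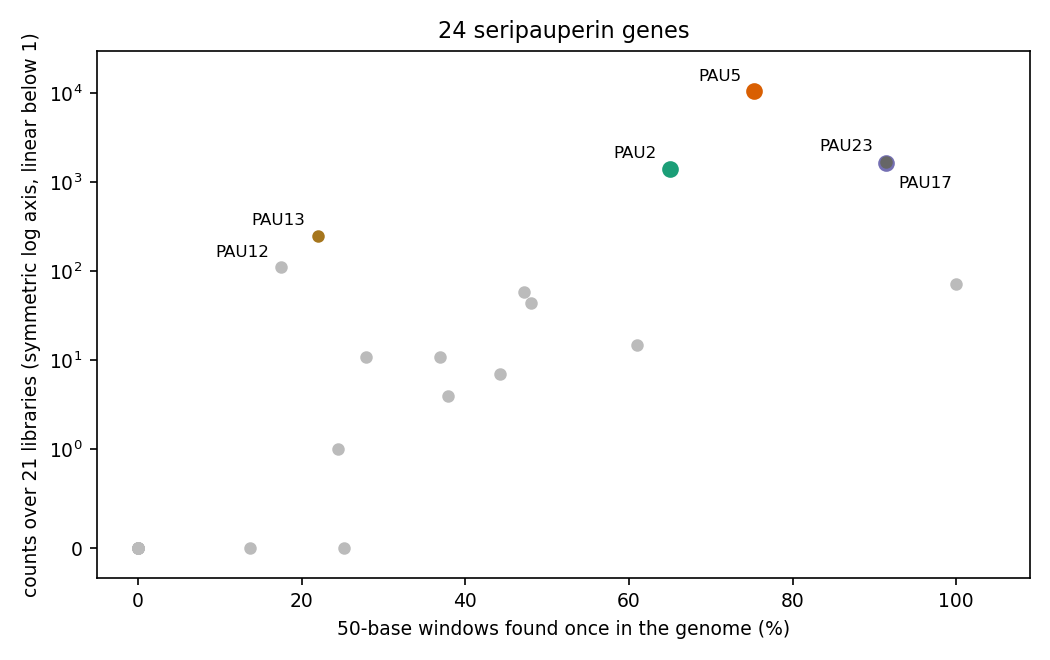
Counts summed over 21 libraries (vertical axis, symmetric log, linear below 1) against the share of 50-base windows that occur once in the R64 genome (horizontal axis, percent) for the 24 seripauperin genes, each a point. PAU5, PAU23, PAU17 and PAU2 are the 4 highest points, and genes at a share of 0 have no counts.

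The promoters of the 3 members are shown because their transcripts moved in different directions in some strains. Each stretch holds the 250 bases before the start codon and the first 50 coding bases. Capitals mark the motifs found on either strand.
PAU2 (chrV:63478-63777, plus strand): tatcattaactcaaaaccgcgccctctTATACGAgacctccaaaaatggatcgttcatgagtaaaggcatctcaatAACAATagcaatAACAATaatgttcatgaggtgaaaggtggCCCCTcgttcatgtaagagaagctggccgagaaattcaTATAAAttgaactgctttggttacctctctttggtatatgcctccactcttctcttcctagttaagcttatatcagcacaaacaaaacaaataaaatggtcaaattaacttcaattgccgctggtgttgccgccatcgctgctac
PAU5 (chrVI:99550-99849, minus strand): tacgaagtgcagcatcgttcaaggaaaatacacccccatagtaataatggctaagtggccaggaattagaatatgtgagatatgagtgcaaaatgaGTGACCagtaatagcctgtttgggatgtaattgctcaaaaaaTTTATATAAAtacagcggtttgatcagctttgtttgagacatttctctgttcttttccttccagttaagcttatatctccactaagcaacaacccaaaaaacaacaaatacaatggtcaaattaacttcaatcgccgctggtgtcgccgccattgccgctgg
PAU17 (chrXII:94497-94796, plus strand): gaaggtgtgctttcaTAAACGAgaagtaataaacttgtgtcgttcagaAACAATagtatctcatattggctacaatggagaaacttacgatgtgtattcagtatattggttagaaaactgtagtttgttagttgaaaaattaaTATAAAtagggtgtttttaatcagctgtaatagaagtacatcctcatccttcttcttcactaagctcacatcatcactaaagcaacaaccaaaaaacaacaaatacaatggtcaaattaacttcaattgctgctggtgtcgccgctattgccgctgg
All 3 hold TATAAA, the TATA element, which begins 95 bases before the start codon in PAU2, 108 in PAU5 and 107 in PAU17, and in PAU5 it overlaps a copy on the other strand that begins at 112. The same element is in 45.2% of the 6001 windows of this kind in the genome and in 23 of the 24 of the family. PAU2 holds TCGTATA, a form of the site of Upc2 and Ecm22, at 223 bases before the start codon, as do 4.15% of all windows. PAU17 holds TCGTTTA, another form of the site of Upc2 and Ecm22, at 235 bases, as do 5.48% of all windows and 16 of the 24 seripauperins. ATTGTT, the core of the Rox1 site, occurs at 174 and 162 bases in PAU2 and at 202 in PAU17, and in 35.2% of all windows. PAU5 holds GGTCAC, an R box of Rtg1 and Rtg3, at 154 bases, as do 5.07% of all windows, and PAU2 holds AGGGG, the stress element of Msn2 and Msn4, at 133 bases, as do 21.6%. TGAAACA, the pheromone element of Ste12, CATTCT and CATTCC, forms of the Tec1 site, and GCCAAG, a Rim101 site, are in 0 of these 3 windows and in 7.50%, 19.2%, 10.9% and 10.3% of all windows. In the 600 bases before the start codon TCGTATA is also found in PAU5, at 252 bases, and it is in 21 of the 24 seripauperins against 8.58% of all genes, while GCCAAG is in all 3 members, 8 of the 24 and 23.2% of all genes. This longer stretch also holds TGAAACA in PAU2, at 598 bases, as it does in 14.6% of all genes. CATTCT is there in PAU2, at 279 and 271 bases, and in PAU5, at 304, and in 22 of the 24 seripauperins against 33.7% of all genes. A further TCGTATA lies in PAU2 at 262 bases. Further copies of ATTGTT, found in 54.9% of all genes, lie in PAU2 at 595 bases and in PAU17 at 300. AGGGG is in PAU17 too, at 540 and 476 bases, and in 17 of the 24 seripauperins and 39.7% of all genes. These matches describe letters in a window and not bound sites.

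PAU2 had the lowest wild-type mean of the members and the largest median variation among replicates. Levels are given as CPM, counts relative to the TMM-scaled library total, in the order of replicates 1, 2 and 3. PAU2 stood at 11.9, 3.25 and 6.98 CPM in the wild type, from 37, 10 and 20 counts. It stood at 53.8, 18.3 and 38.0 CPM in ste12, at 29.1, 18.8 and 34.9 in dig1 and at 43.8, 36.4 and 39.5 in ras2. Every library of these 3 mutants lay above every wild-type library, and the ste12 libraries were spread the most, with replicate 2 lowest. The rim101-531 libraries lay close together at 23.5, 24.3 and 23.6 CPM, also above the wild type. PAU2 stood at 11.7, 8.22 and 10.1 CPM in spt8 and at 11.3, 19.1 and 6.55 in rtg3, and both of these groups overlapped the wild type. From the highest mean to the lowest the order was ras2, ste12, dig1, rim101-531, rtg3, spt8 and wild type, and the ranges of neighbours in this order overlapped except those of rim101-531 and rtg3.

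PAU5 was the most abundant member, and the wild type had its lowest mean. The wild-type libraries stood at 72.0, 47.5 and 67.4 CPM. The dig1 libraries stood at 331, 340.4 and 329 CPM, above all others. The spt8 libraries followed at 154, 212 and 172 CPM, then rtg3 at 157, 185 and 169.6 and ras2 at 141, 173 and 155. These 3 groups overlapped each other, and none of them overlapped dig1. PAU5 stood at 111, 149 and 141 CPM in rim101-531, which overlapped ras2, and at 108, 72.2 and 103 in ste12. All ste12 libraries were above the wild type, replicate 2 of ste12 only by the difference between 72.2 and 72.0 CPM.

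PAU17 spanned the widest range, 18.05-fold between the highest and the lowest group mean, against 5.40-fold for PAU2 and 5.36-fold for PAU5. The wild-type libraries stood at 8.39, 10.4 and 9.07 CPM, from 26 to 32 counts. It was highest in dig1, at 79.9, 64.8 and 78.8 CPM, and next in ras2, at 43.5, 50.1 and 45.9. Neither group overlapped any other. The rim101-531 libraries stood at 18.2, 23.3 and 22.5 CPM and the ste12 libraries at 15.2, 15.7 and 12.99, and both groups lay above the wild type without overlap. Below the wild type were spt8, at 3.79, 5.36 and 4.54 CPM, and rtg3, at 4.22, 5.46 and 2.71, which overlapped each other and rested on 12 to 18 counts per library. In the order dig1, ras2, rim101-531, ste12, wild type, spt8 and rtg3, the last 2 were the only neighbours with overlapping ranges.

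**Figure D2:**
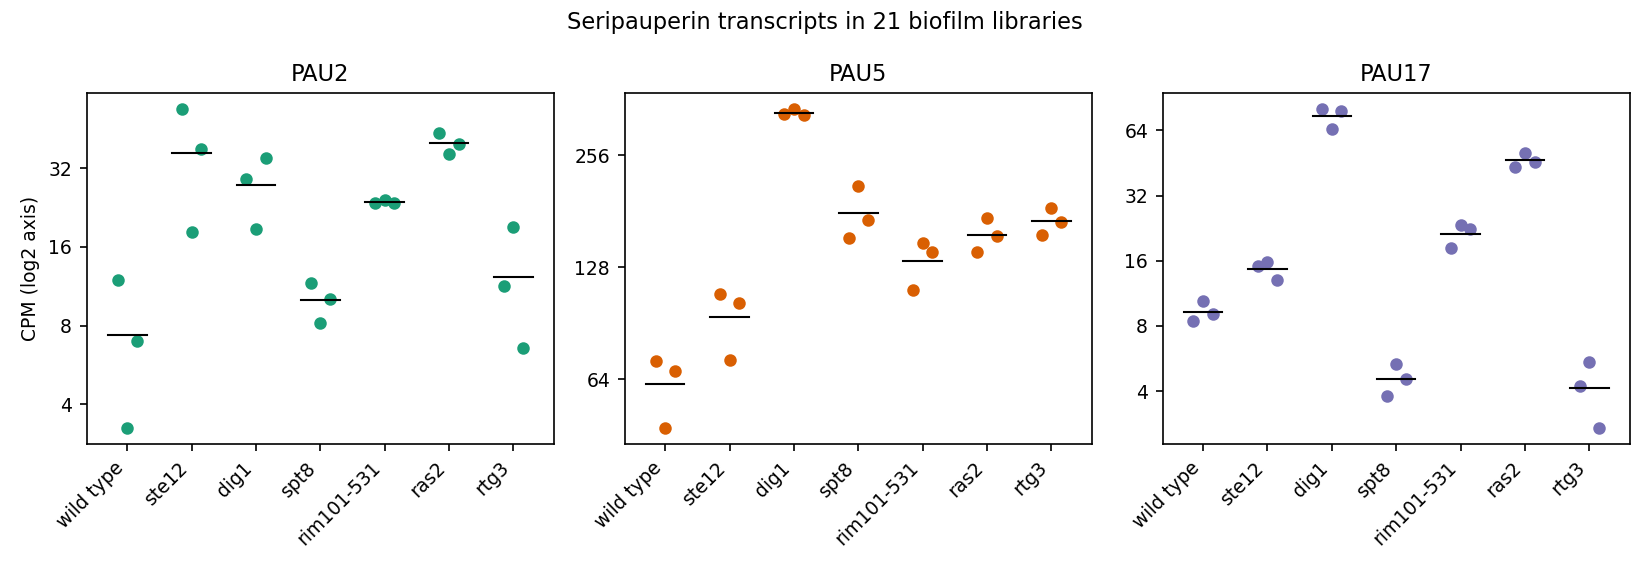
CPM of PAU2, PAU5 and PAU17 (vertical axes, log2 scale) in each library, by strain (horizontal axis), with a bar at the mean of the 3 libraries. PAU5 is lowest in the wild type and highest in dig1, whereas PAU17 falls below the wild type in spt8 and rtg3.

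Per length, PAU5 was the highest member in every strain. In the wild type it stood at 169 ± 35.3 CPM per kilobase (SD, n = 3), against 24.8 ± 2.73 for PAU17 and 20.4 ± 12.01 for PAU2. In dig1 the levels were 904 ± 16.5 for PAU5, 199 ± 22.4 for PAU17 and 76.0 ± 22.5 CPM per kilobase for PAU2. PAU17 was above PAU2 in every dig1 library and below it in every spt8, rtg3, rim101-531 and ste12 library.

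All 3 members differed among the 7 strains (edgeR quasi-likelihood F test of the 7 groups together, adjusted p = 2.62e-13 for PAU17, 1.88e-08 for PAU5 and 8.77e-05 for PAU2). Of all 5786 tested genes 63.5% passed this test. The 6 comparisons with the wild type share the 3 wild-type libraries, and wild-type replicate 2 had the lowest PAU2 and PAU5 values of all libraries.

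In dig1, mutated in the repressor of Ste12, all 3 members rose. PAU17 averaged 74.5 ± 8.42 CPM, 7.99-fold above the 9.29 ± 1.02 of the wild type (3.00 ± 0.16 on the log2 scale, adjusted p = 1.46e-10). PAU5 rose 5.36-fold, from 62.3 ± 13.02 to 334 ± 6.10 CPM (2.42 ± 0.17, adjusted p = 1.21e-08), and PAU2 3.71-fold, from 7.39 ± 4.36 to 27.6 ± 8.18 CPM (1.89 ± 0.42, adjusted p = 0.00312). Of all tested genes 15.7% were called in dig1, 8.02% higher and 7.69% lower. The share of records that aligned at several places was 27.9% ± 0.654 in dig1, 21.2% ± 0.417 in the wild type and between 18.8% ± 0.205 (rtg3) and 24.3% ± 0.759 (spt8) in the other strains, and the part of such reads in these results was not tested.

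In ste12, mutated in the factor that Dig1 restrains, the members were also higher than in the wild type, by amounts that differed between genes. PAU2 was 4.90-fold higher, at 36.7 ± 17.8 CPM (change of 2.29 ± 0.42 on the log2 scale, adjusted p = 0.000943). PAU5 stood at 94.4 ± 19.4 CPM (0.60 ± 0.17, adjusted p = 0.0323) and PAU17 at 14.6 ± 1.45 CPM (0.65 ± 0.20, adjusted p = 0.0394). Of all tested genes 9.97% were called in ste12, 4.77% higher and 5.2% lower. The calls of PAU5 and PAU17 depended on which libraries entered the fit. That of PAU5 was lost without wild-type replicate 2 or 3 or ste12 replicate 1 or 3 (adjusted p from 0.00961 to 0.140 over the alternatives), and that of PAU17 without wild-type replicate 1 or 3 or ste12 replicate 1 or 2 (0.0319 to 0.126). The dig1 libraries were also set directly against ste12, in the model of all 21 libraries but without the wild-type means. They were higher than ste12 for PAU17 (log2 fold change 2.34 ± 0.16, adjusted p = 1.24e-09) and for PAU5 (1.82 ± 0.17, adjusted p = 1.29e-07). Of all tested genes 21.7% were called in this comparison, 11.6% higher in dig1 and 10.1% lower. PAU2 did not pass in dig1 against ste12 (-0.40 ± 0.35, 95% interval -1.13 to 0.32, adjusted p = 0.468), and the interval spans 0.

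In ras2 all 3 members rose. The rise was 5.36-fold for PAU2, at 39.9 ± 3.69 CPM (2.42 ± 0.40 on the log2 scale, adjusted p = 0.000174), 4.99-fold for PAU17, at 46.5 ± 3.37 CPM (2.32 ± 0.16, adjusted p = 8.97e-09) and 2.51-fold for PAU5, at 156 ± 16.3 CPM (1.33 ± 0.17, adjusted p = 1.37e-05). Of all tested genes 25.3% were called in ras2, 10.3% higher and 14.9% lower.

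In rim101-531 all 3 members rose, where 3.08% of all tested genes were called, 1.28% higher and 1.8% lower. PAU17 rose 2.30-fold and averaged 21.3 ± 2.72 CPM (1.20 ± 0.18 on the log2 scale, adjusted p = 0.000955) and PAU5 2.15-fold to 134 ± 19.7 CPM (1.10 ± 0.17, adjusted p = 0.00103). PAU2 stood at 23.8 ± 0.442 CPM (1.68 ± 0.43, adjusted p = 0.0357). Its call was lost without any 1 of the rim101-531 libraries and without wild-type replicate 2 or 3 (adjusted p from 0.00218 to 0.180 over the alternatives).

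In spt8 and rtg3 the members parted. PAU5 rose 2.87-fold in spt8 with a mean of 179 ± 29.6 CPM (1.52 ± 0.17 on the log2 scale, adjusted p = 1.79e-06) and 2.74-fold in rtg3, to 170.5 ± 14.3 CPM (1.45 ± 0.17, adjusted p = 3.94e-06). PAU17 fell in both, to 4.56 ± 0.787 CPM in spt8 (-1.03 ± 0.23, adjusted p = 0.00262) and 4.13 ± 1.37 CPM in rtg3 (-1.20 ± 0.23, adjusted p = 0.000774). PAU2 stood at 10.0 ± 1.73 CPM in spt8 (0.44 ± 0.48, 95% interval -0.57 to 1.45, adjusted p = 0.551) and 12.3 ± 6.33 CPM in rtg3 (0.69 ± 0.45, 95% interval -0.26 to 1.64, adjusted p = 0.295), and both intervals span 0. Of all tested genes 25.5% were called in spt8, 11.1% higher and 14.4% lower, and 20.5% in rtg3, 9.32% higher and 11.2% lower.

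**Figure D3:**
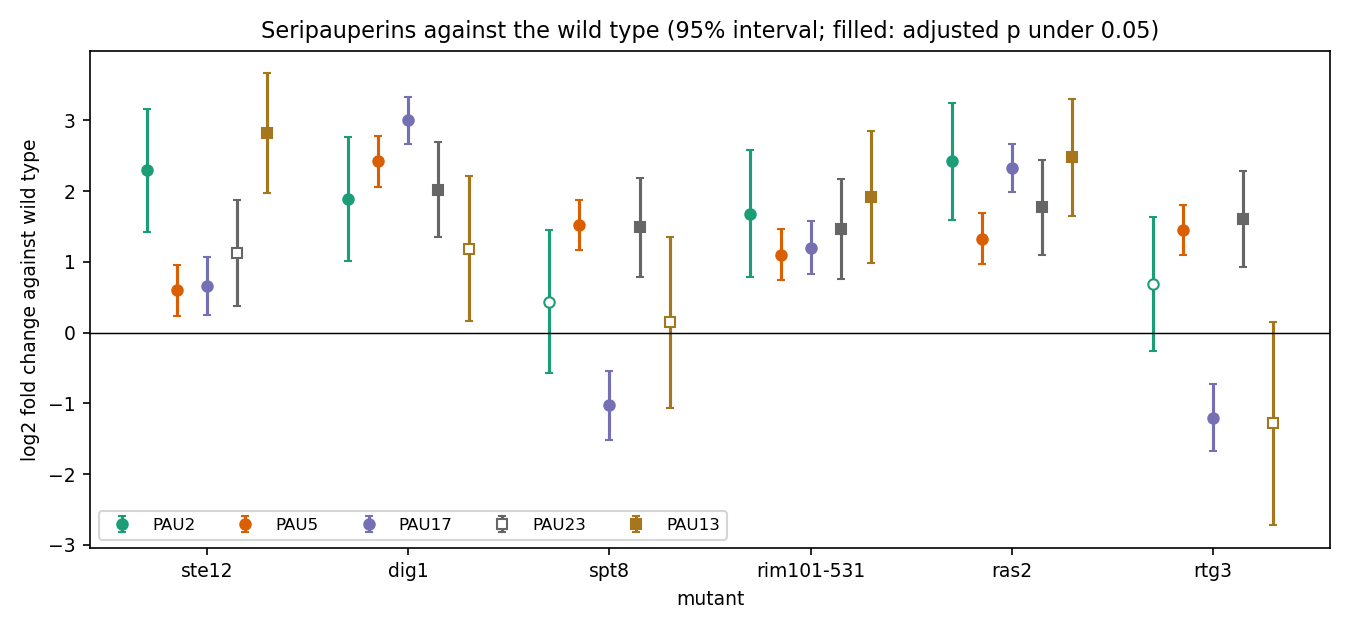
Log2 fold change against the wild type (vertical axis) with 95% intervals for PAU2, PAU5, PAU17 (circles) and the other tested seripauperins PAU23 and PAU13 (squares), by mutant (horizontal axis), filled where the adjusted p was under 0.05. PAU17 lies at -1.03 in spt8 and -1.20 in rtg3, where PAU5 lies at 1.52 and 1.45.

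The ratio between members within a library does not depend on the scaling of libraries. The log2 ratio of PAU5 to PAU17, per kilobase, was 3.12, 2.21 and 2.92 in the wild-type libraries. It was 5.37, 5.33 and 5.26 in spt8 and 5.24, 5.11 and 5.99 in rtg3, so that PAU5 stood 39.9-fold above PAU17 in spt8 and 43.6-fold in rtg3, against 6.73-fold in the wild type. In the other 4 mutants the mean log2 ratio lay between 1.77 ± 0.05 (ras2) and 2.70 ± 0.42 (ste12), below every library of spt8 and rtg3. The ratio of PAU2 to PAU17 was also higher in both, at 1.18 ± 0.50 in spt8 and 1.55 ± 0.28 in rtg3 against -0.47 ± 1.10 in the wild type. The ratio of PAU2 to PAU5 was raised in ste12, at -1.45 ± 0.49, and in ras2, at -1.95 ± 0.28, against -3.22 ± 0.64 in the wild type. The ratio of PAU5 to PAU17 was lower in ras2, at 1.77 ± 0.05 against 2.75 ± 0.48 in the wild type. These 7 were the comparisons, out of 18, in which the libraries did not overlap the wild type. Each had an exact two-sided permutation p = 0.1, the smallest that 3 against 3 libraries allow. Adjusted over the 18 ratios compared this p was 0.257, so none could pass 0.05. How often the ratios of other gene pairs separate in this way was not counted.

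**Figure D4:**
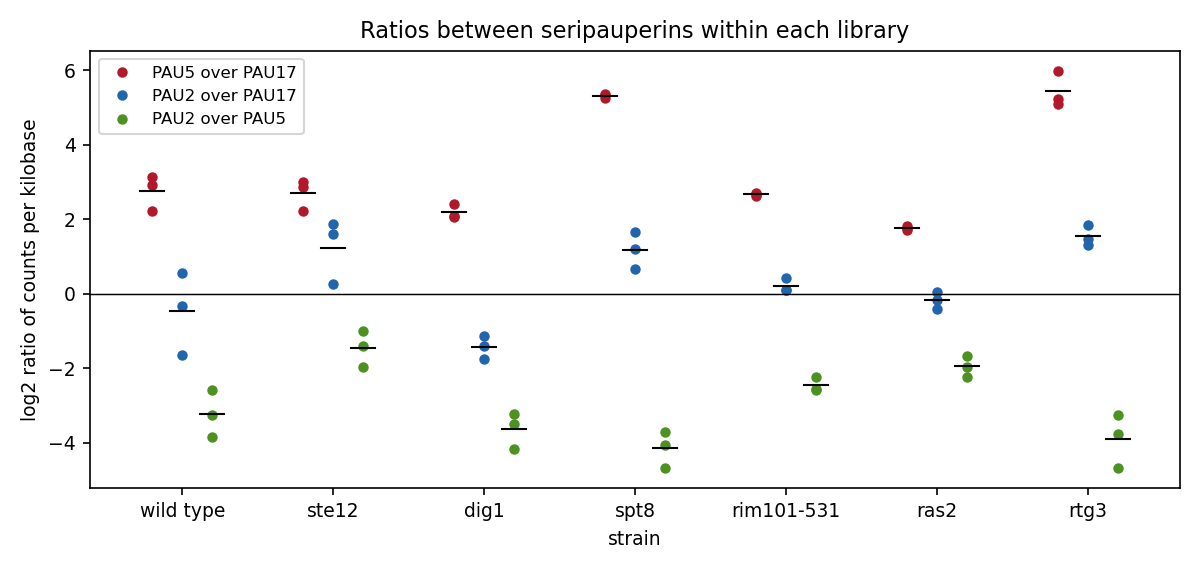
Log2 ratio of counts per kilobase between pairs of seripauperins in each library (vertical axis) by strain (horizontal axis), with a bar at the mean of 3 libraries. The ratio of PAU5 to PAU17 lies above 5 in every spt8 and rtg3 library and at or below 3.12 in every other library.

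Over the 21 libraries the log2 CPM of PAU2 and PAU17 had a Pearson correlation of 0.67, of PAU5 and PAU17 of 0.39 and of PAU2 and PAU5 of 0.35, as a description, since libraries of 1 strain share their genotype. PAU23, the gene nearest to PAU17 in sequence, correlated with PAU5 at 0.83 and with PAU17 at 0.39. It rose in dig1 (log2 fold change 2.02 ± 0.32, adjusted p = 0.000149), ras2 (1.77 ± 0.32, adjusted p = 0.000444), rtg3 (1.61 ± 0.32, adjusted p = 0.00143), spt8 (1.49 ± 0.33, adjusted p = 0.00244) and rim101-531 (1.46 ± 0.34, adjusted p = 0.0194). In ste12 it stood at 20.7 ± 6.02 CPM against 9.41 ± 2.63 in the wild type (1.13 ± 0.36, adjusted p = 0.0519), and in rtg3 its libraries ran from 15.3 to 46.7 CPM. PAU13 correlated with PAU2 at 0.85 and with PAU5 at -0.03. PAU13 had 1 to 7 counts per library in the wild type and 1 to 3 in rtg3, and the filter on low counts favours such a gene where some groups are high, so its values are a description. It stood at 9.62 ± 1.80 CPM in ste12, 7.56 ± 1.59 in ras2, 5.16 ± 1.16 in rim101-531, 3.07 ± 1.27 in dig1 and 1.46 ± 0.423 in spt8, against 1.33 ± 0.969 in the wild type and 0.541 ± 0.288 in rtg3. PAU13 is 98.6% identical to PAU10, 95.3% to PAU2 and 85.6% to PAU5. In PAU13 22.0% of the 50-base windows and 45.1% of the 100-base windows occur once in the genome, so its counts may miss or mix reads of close copies.

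The protein-coding genes beside the members were compared with them, 2 on each side. In ste12, dig1, rim101-531 and rtg3 0 of the 4 neighbours of PAU2 and 0 of the 4 neighbours of PAU5 passed edgeR's test against the wild type. The share of all tested genes called was 9.97% in ste12, 15.7% in dig1, 3.08% in rim101-531 and 20.5% in rtg3. It was 25.5% in spt8 and 25.3% in ras2. At such shares 0 calls among 4 genes say little about the region. In ste12 and rim101-531 0 of the 4 neighbours of PAU17 passed, with p under 0.05 before adjustment for 2 and 1 and 0 calls by DESeq2. Without adjustment p was under 0.05 for 3 neighbours of PAU2 in dig1, of which DESeq2 called 1, for 1 neighbour of PAU2 in rim101-531, and for 1 neighbour of PAU5 in each of ste12 and rim101-531, of which DESeq2 called 0. Log2 fold changes of the neighbours of PAU5 in dig1 ran from -0.23 to 0.30, where PAU5 stood at 2.42, and in rtg3 from -0.16 to -0.05. Of the neighbours of PAU2, FRD1, a soluble fumarate reductase, rose in spt8 (1.41, adjusted p = 6.09e-09), where PAU2 did not pass, and in ras2 (0.64, adjusted p = 5.85e-05), and RML2, a mitochondrial ribosomal protein, fell in spt8 (-0.42, adjusted p = 0.0271). Of the neighbours of PAU5, LPD1, dihydrolipoamide dehydrogenase, fell in spt8 (-0.67, adjusted p = 0.00203), and FRS2, a subunit of phenylalanyl-tRNA synthetase, rose in ras2 (0.53, adjusted p = 0.0293), both strains in which PAU5 rose. Beside PAU17, HSP104, a disaggregating chaperone, fell in dig1 (-0.62, adjusted p = 0.0306) and ras2 (-1.50, adjusted p = 1.55e-05), the strains in which PAU17 was highest. POM33, a protein of the nuclear pore membrane, fell in rtg3 (-0.80, adjusted p = 0.00601), spt8 (-0.69, adjusted p = 0.0113) and dig1 (-0.59, adjusted p = 0.0403). SSA2, a cytosolic chaperone that lies 444 bases beyond PAU17 on the other strand, passed in 0 of the 6 comparisons with the wild type, with p under 0.05 before adjustment in 0 and 0 calls by DESeq2.

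Genes known to be induced with the seripauperins when oxygen or sterol is short were examined as lists. The hypoxic cell wall list holds TIR1, TIR2, TIR3, TIR4, DAN1 and DAN4, which encode mannoproteins akin to the seripauperins, and all 6 were tested. Of these 5 rose and 0 fell in ste12, 5 and 0 in dig1, 5 and 0 in ras2, 4 and 0 in spt8, 4 and 0 in rim101-531, and 4 and 1 in rtg3. Their median log2 fold change was 1.46 in ste12, 1.31 in ras2, 1.03 in rim101-531, 0.87 in spt8, 0.69 in rtg3 and 0.66 in dig1, where that of all tested genes lay between -0.03 and 0.02. The share of all tested genes that rose was 4.77% in ste12, 8.02% in dig1 and 10.3% in ras2. It was 11.1% in spt8, 1.28% in rim101-531 and 9.32% in rtg3, where 11.2% fell. In this list and those of enzymes and sterol uptake, genes named singly were picked by smallest p over the 7 groups. Their p-values come from the same libraries and are a description. The members of the list parted in rtg3 as well: TIR2 stood at 5199 CPM against 59.0 in the wild type (6.46 ± 0.19 on the log2 scale, adjusted p = 4.05e-15) and TIR1 fell from 856 to 28.2 CPM (-4.92 ± 0.30, adjusted p = 2.20e-10). TIR3 rose in dig1 (1.67 ± 0.20, adjusted p = 6.09e-06) and ste12 (1.52 ± 0.20, adjusted p = 2.07e-05) and did not pass in spt8 (0.36 ± 0.19, adjusted p = 0.181).

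Of 8 hypoxic enzymes and isoforms, all tested, 5 rose in each of ste12, spt8, ras2 and rtg3, 3 in dig1 and 1 in rim101-531, while 2 fell in spt8 and 1 in each of dig1 and ras2. The median log2 fold change of this list ran from 0.26 in rim101-531 to 0.73 in ste12. Among all tested genes 4.77% rose in ste12, 11.1% in spt8, 10.3% in ras2, 9.32% in rtg3, 8.02% in dig1 and 1.28% in rim101-531. The share that fell was 14.4% in spt8, 7.69% in dig1 and 14.9% in ras2. ANB1, the hypoxic form of translation factor eIF5A, rose in ste12 (2.07 ± 0.22 on the log2 scale, adjusted p = 2.73e-06) and spt8 (1.72 ± 0.22, adjusted p = 1.09e-05) and stood at 44.0 CPM in dig1 against 35.4 in the wild type (0.32 ± 0.23, adjusted p = 0.434), the strain in which PAU5 and PAU17 were highest. CYC7, the hypoxic isoform of cytochrome c, fell in spt8 (-2.22 ± 0.27, adjusted p = 4.71e-06), ras2 (-0.78 ± 0.23, adjusted p = 0.0183) and dig1 (-0.73 ± 0.24, adjusted p = 0.0410). OLE1, the fatty acid desaturase, rose in 5 of the 6 mutants, by 0.52 in ras2 to 0.89 in rtg3 on the log2 scale, and ERG11, the sterol demethylase, rose in 5 and fell in spt8 (-0.91 ± 0.16, adjusted p = 0.000351).

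The list named for sterol uptake holds AUS1, PDR11, SUT1, ARE1 and FET4, all tested, of which FET4 carries iron. Of these 5 genes 4 rose in ste12, 3 in spt8, 3 in ras2 and 2 in each of dig1, rim101-531 and rtg3. The 1 gene that fell in ras2 and in rtg3 was FET4. The median log2 fold change of the list ran from -0.15 in rtg3 to 0.82 in ste12. Among all tested genes 4.77% rose in ste12, 11.1% in spt8, 10.3% in ras2, 8.02% in dig1, 1.28% in rim101-531 and 9.32% in rtg3. The share that fell was 14.9% in ras2 and 11.2% in rtg3. PDR11, an exporter-type transporter needed for sterol uptake without oxygen, rose in all 6 mutants, with 92.7 CPM in wild-type libraries against 277 in dig1 (log2 fold change 1.58 ± 0.11, adjusted p = 5.48e-09) and 142 in rim101-531 (0.62 ± 0.10, adjusted p = 0.00206). Its partner AUS1 did not pass in dig1 (0.05 ± 0.14, adjusted p = 0.876) or spt8 (0.04 ± 0.14, adjusted p = 0.877) and rose in rtg3 (0.78 ± 0.14, adjusted p = 0.000433). FET4, a low-affinity iron transporter induced in hypoxia, rose in ste12 (1.02 ± 0.14, adjusted p = 5.42e-05) and fell in ras2 (-0.69 ± 0.14, adjusted p = 0.00177) and rtg3 (-0.77 ± 0.14, adjusted p = 0.000786).

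For the 8 known regulators the median log2 fold change ran from 0.16 in dig1 to 0.29 in ras2. By edgeR's test 0 fell in any of the 6 mutants, and 3 rose in ras2, 3 in rtg3, 2 in dig1, 2 in spt8, 1 in ste12 and 0 in rim101-531, where 4 had p under 0.05 before adjustment and DESeq2 called 2. Among all tested genes 10.3% rose in ras2, 9.32% in rtg3, 8.02% in dig1, 11.1% in spt8, 4.77% in ste12 and 1.28% in rim101-531. Whether the 8 regulators were called more often than other genes was not tested. UPC2, the activator, rose in ste12, where it stood at 50.5 CPM against 25.4 (0.99 ± 0.22 on the log2 scale, adjusted p = 0.00492) and did not pass elsewhere. ECM22, its paralogue, rose in spt8 (0.75 ± 0.15, adjusted p = 0.00121) and rtg3 (0.45 ± 0.15, adjusted p = 0.0436). HAP1, the haem-responsive activator, rose in dig1 (0.51 ± 0.08, adjusted p = 0.000149), ras2 (0.42 ± 0.08, adjusted p = 0.000719) and rtg3 (0.25 ± 0.08, adjusted p = 0.0305). TUP1 and CYC8, which encode the corepressor, rose in ras2 (0.70 ± 0.11, adjusted p = 0.000128, and 0.30 ± 0.09, adjusted p = 0.0174), TUP1 also in dig1 and CYC8 also in rtg3. IXR1, which encodes a DNA-binding protein that acts on hypoxic genes, rose in spt8 (0.39 ± 0.10, adjusted p = 0.00769). The group means of ROX1 lay between 63.0 and 79.9 CPM, and its libraries ran from 46.4 CPM in ste12 to 86.7 in rtg3. ROX1 did not pass the test of the 7 groups (adjusted p = 0.664), and MOT3 passed that test (adjusted p = 0.0146) and no comparison with the wild type.

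**Figure D5:**
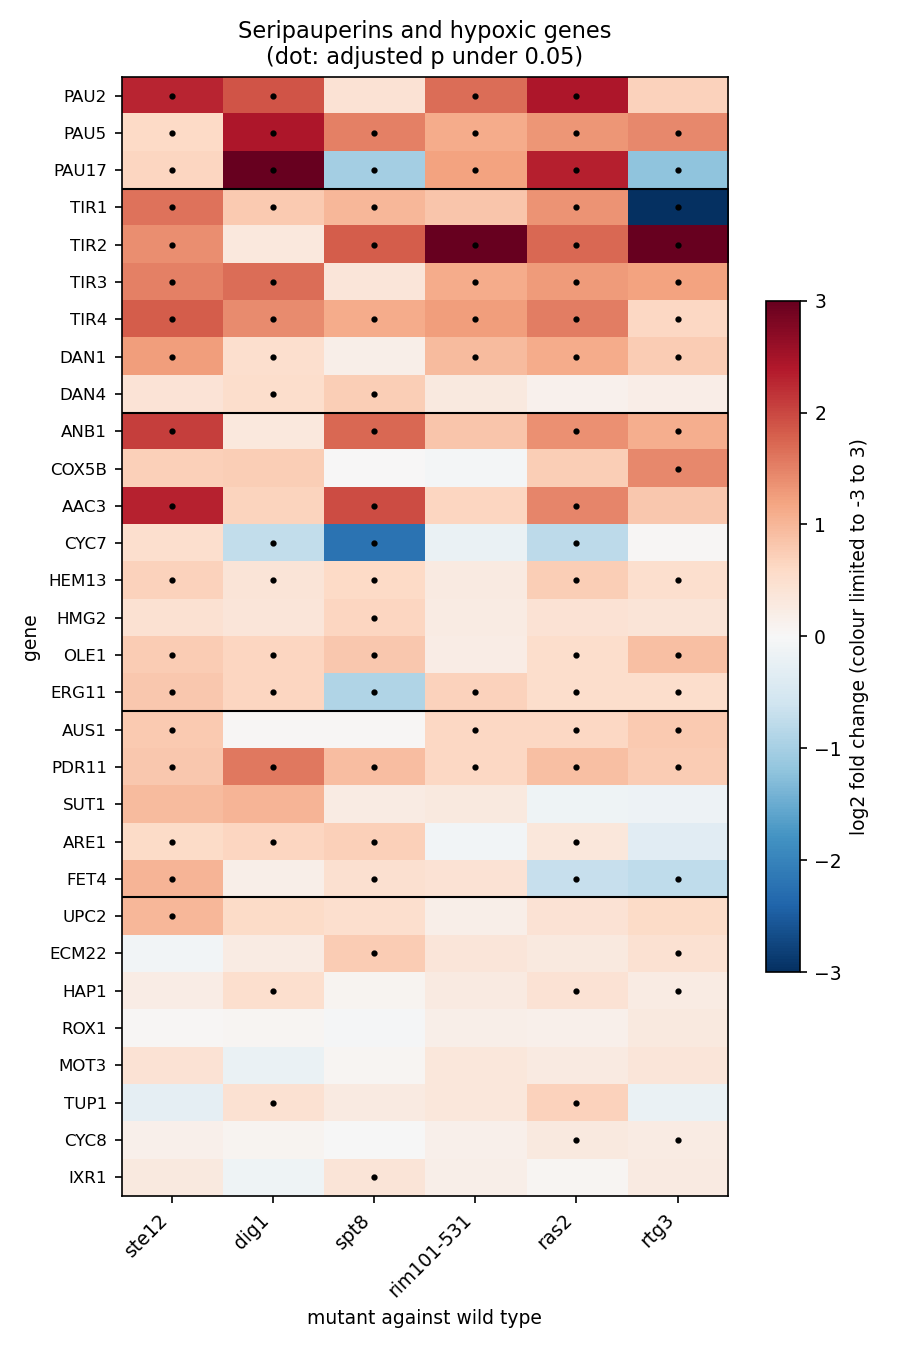
Log2 fold change against the wild type (colour, limited at both ends of the scale shown) of PAU2, PAU5, PAU17 and the 27 genes of 4 lists (rows) in 6 mutants (columns), with a dot where the adjusted p was under 0.05. PAU5 is raised in all columns, while PAU17 and TIR1 are below the wild type in rtg3.

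Genes outside the seripauperin family were ranked by how closely their log2 CPM followed each member over the 21 libraries, among 4922 named genes with a mean of at least 10 CPM, as a description in which libraries of 1 strain share a genotype. Closest to PAU2 were ERG24, a sterol reductase (Pearson correlation 0.86), TIR4 (0.86), ENO2, an enolase (0.84), RNR2, a subunit of ribonucleotide reductase (0.81), and DAN1 (0.80). Closest to PAU5 were PDR11 (0.88), MOB1, a component of the mitotic exit network (0.85), DAP1, a haem-binding protein of sterol synthesis (0.84), NRG2, a repressor (0.81), and CMR1, a nuclear protein (0.80). Closest to PAU17 were AQY1, a water channel (0.92), MOG1, a nuclear import factor (0.87), REV7, a subunit of DNA polymerase zeta (0.85), RPL2B, a ribosomal protein with a near-identical paralogue (0.85), and PSD1, phosphatidylserine decarboxylase of mitochondria (0.85). The ranking depended on the measure: over the 7 group means only 4 of these 15 genes, RNR2, CMR1, AQY1 and MOG1, were among the first 5 for their member, and NRG2 stood at place 43 for PAU5.

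AQY1, the gene closest to PAU17, was picked for that likeness, so its levels are a description. It averaged 238 ± 5.47 CPM in ras2, 176 ± 46.9 in dig1 and 88.8 ± 1.86 in rim101-531, against 44.1 ± 13.2 in the wild type. Its means in spt8, 21.8 ± 2.35 CPM, and in rtg3, 16.2 ± 1.81, were below the wild type, as were those of PAU17. In ste12 AQY1 stood at 38.8 ± 20.1 CPM, a range that overlapped the wild type, whereas PAU17 lay above it.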

How the data were processed

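Polyadenylated RNA of 21 biofilm samples was measured by sequencing. The deposited values are raw counts per feature for each library. Per the submitters' processing notes, bcl2fastq, TopHat2 2.0.19 and HTSeq 0.6.1 were used with genome build R64, a reference of another strain background. Reads that aligned to more than 1 place or to no feature are not in the counts, and rows of such reads, from 40.1% to 47.8% of records per library, were left out of library sizes. The strand setting of the counting is not stated in the labels used here.

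Groups were taken from the labels. Genes with low counts were removed by edgeR's filterByExpr, and 5786 genes were tested with TMM scaling and quasi-likelihood F tests in 1 model over the 21 libraries (edgeR 4.0.16, limma 3.58.1, R 4.3.3), with Benjamini-Hochberg adjustment over all of them and a threshold of 0.05. Log2 fold changes are given ± SE and levels ± SD over 3 libraries. Replicates differed by more than sampling noise in all 21 pairs (chi-square over degrees of freedom from 1.95 to 58.7). Sequences, positions, identity and windows were computed from RefSeq's R64 genome and annotation. The fits were tested on simulated counts.

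The members and lists were chosen with earlier results of these data known. Named were the members, the other seripauperins past the filter, 2 neighbours on each side, the 5 genes most correlated with each member, all regulators, up to 4 genes of each other list by smallest p over the 7 groups, and the genes that name the mutants. Alternatives were DESeq2 1.42.0, its size factors, no filter, a replicate block, fits of only the groups compared, and leaving out each library.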

Additional observations from a re-analysis of the deposited data

How the results depend on the processing

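Of 306 values of the members' tests under the alternatives, 291 kept their direction and side of the threshold, 15 lost their call and 0 reversed. All lost calls were those of PAU5 and PAU17 in ste12 and PAU2 in rim101-531. When only the 2 groups were fitted, PAU5 in ste12 was 0.62 (adjusted p = 0.0871) and PAU17 0.68 (adjusted p = 0.0875). Leaving out 1 library gave log2 fold changes of 0.44 to 0.77 for PAU5 in ste12, 0.61 to 0.75 for PAU17 in ste12 and 1.32 to 2.25 for PAU2 in rim101-531. For PAU2 it gave 1.92 to 2.87 in ste12, 1.55 to 2.48 in dig1 and 2.07 to 3.00 in ras2, with each call held. Fitting only the groups compared changed the genes called in dig1 from 909 to 385, in rim101-531 from 178 to 61 and in dig1 against ste12 from 1255 to 603. With 1 library left out the genes called ranged from 357 to 456 of 577 in ste12, from 76 to 176 in rim101-531 and from 719 to 1068 of 1185 in rtg3. These fits hold fewer samples. The replicate block gave 269 genes in rim101-531 and changed no member's call. The labels do not say that replicate numbers mark a shared batch. Deviations of same-numbered samples correlated over 0.1 in 2 of 3 pairs in each comparison except rtg3 (0 of 3), with a highest value of 0.54, and 4 or 5 of 6 samples correlated best with their own number, or 0 of 6 in rtg3. In rtg3 the deviations of replicates 1 and 2 correlated negatively with those of the wild type, at -0.24 and -0.25. A shared batch therefore cannot be told from these values, and the block is given only as an alternative. Precision for PAU2 and PAU17 is limited by counts as low as 10 and 12 per library. Under the alternatives 339 counts of called genes in the lists were rated the same and 46 as moved. DESeq2 called 3 regulators in ste12, against 1 by edgeR, and 8 hypoxic enzymes and isoforms in ras2, against 6.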

Other observations

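PAU2 was lowest in replicate 2 in 5 of the 7 groups, whereas PAU5 and PAU17 were each lowest in replicate 1 in 4 of the 7. This was noticed after the values were seen and was not tested. Over all features replicates 1 and 2 were the most different pair in 7 of the 7 groups.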
